A study of Mus musculus with 9 samples.

Results

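The genes described here are 40 transcription factors that lay out the embryonic body plan and are not Hox genes, among 22527 gene symbols measured in mouse adipose tissue. They were chosen by symbol from a list, and all 40 were in the table. The study measured ribosome-bound RNA in brown fat (BAT), in the inguinal white depot under the skin (iWAT) and in the epididymal white depot of the abdomen (eWAT), with 3 libraries of each and 9 in all. Every library came from C57BL/6 mice aged 8 weeks that the labels list as wild type, and no treatment is named. RNA was pulled down with an antibody against GFP, so the design needs a GFP-tagged ribosome, yet no label names a transgene or says which cells carried it. The title of the deposited table pairs adiponectin, an adipocyte gene, with TRAP (translating ribosome affinity purification).

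Patterning factors are switched on in the embryo in stripes, limb fields and germ layers, and many stay on in adult connective tissue as a record of where a cell came from. Fat depots arise from different parts of the mesoderm, and depots of the mouse differ in which of these genes they express. Brown fat of the back descends in large part from somite cells that once expressed En1, Pax7 or Myf5. Visceral fat has been linked to Wt1-positive mesothelium, and subcutaneous fat to Tbx15, Shox2 and En1. Several of the same genes also act in other tissues, such as En1 in sweat gland formation and Foxc1 in hair follicle stem cells.

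The libraries were not alike in depth or in their levels of markers of other cells. Depth, estimated from the steps that 1 read makes in weakly expressed genes, was 11.1, 21.2 and 14.8 M reads in the 3 BAT libraries. It was 4.65, 3.47 and 2.91 M in the 3 iWAT libraries and 16.2, 4.45 and 4.62 M in the 3 eWAT libraries, in order of replicate number. The values are FPKM (fragments per kilobase and per M mapped reads), which can be compared between genes. Brown adipocyte markers summed to 25400 to 28300 FPKM in BAT and to 59.1 to 540.0 in the white depots, which fits the titles, although the tissue field of BAT 3 reads inguinal. The 12 epithelial and skin markers reached 29.4 to 58.2 FPKM in sum in the BAT libraries, 184.0 to 506 in those of iWAT and 74.2 to 249 in those of eWAT. Of these, Epcam and Krt18 were at 0 in every BAT library and Krt18 was at 0 in every iWAT library. Epcam, Cdh1, Krt1 and Krt18 did not exceed 0.633 FPKM in any library, and Lor did not exceed 1.07. Krt5, the keratin of basal epithelial cells, ran from 10.3 to 188 FPKM. The sum came mostly from Krt5, Krt14, Krt15 and Dsp. The 13 skeletal muscle markers reached 63.7 to 156 FPKM in BAT libraries, 1850 to 2540 in iWAT libraries and 228 to 1320 in eWAT libraries. In BAT most of this sum was Acta1 alone (58.4 to 148 FPKM), and in the white depots most was Acta1 and Pvalb. The 11 stromal markers reached 7.98 to 19.6 FPKM in BAT, 105 to 370.0 in iWAT and 66.0 to 169 in eWAT. Of these, Dpt had its highest mean in iWAT (206 FPKM) and Dcn in eWAT (53.8). Pdgfra, Pdgfrb, Pi16, Dpp4 and Fbn1 did not exceed 0.859 FPKM in any library. Of the 10 adipocyte markers, Fabp4 was at 21800 FPKM or more in each library. Plin1, Pparg, Cd36 and Acsl1 were called higher in BAT than in iWAT, and 0 were called lower. Against eWAT, Acsl1 alone was called higher in BAT, while Adipoq, Fabp4 and Cidec were called lower (log2 differences -1.39, -0.92 and -1.79). Plin1 was at 429 ± 27.2 FPKM (SD, n = 3) in BAT and 165 ± 119 in iWAT, and Plin1, Pparg and Cd36 were lowest in iWAT 2. In such pull-downs from whole tissue, fewer cells of a type and less RNA per cell cannot be told apart.

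Most of the 40 factors were barely detected. A threshold of at least 1 FPKM in at least 3 libraries was passed by 16: En1, Six2, Tbx3, Irx1, Irx2, Irx3, Irx5, Zic2, Gata6, Osr1, Osr2, Foxc1, Foxc2, Twist1, Twist2 and Prrx1. Another 5, Tbx15, Wt1, Zic5, Gata2 and Foxf1a, reached 1 FPKM in 1 or 2 libraries, and 19 never did. Myf5, the myogenic factor used to trace the brown fat lineage, was listed at 0 in all 9 libraries, as was the heart and foregut factor Gata4. Values of 10 FPKM or more were reached by 7 factors, namely Twist1, Twist2, En1, Irx3, Irx5, Foxc1 and Foxc2. The heat map of the 40 genes shows these as the bright rows.

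**Figure D1:**
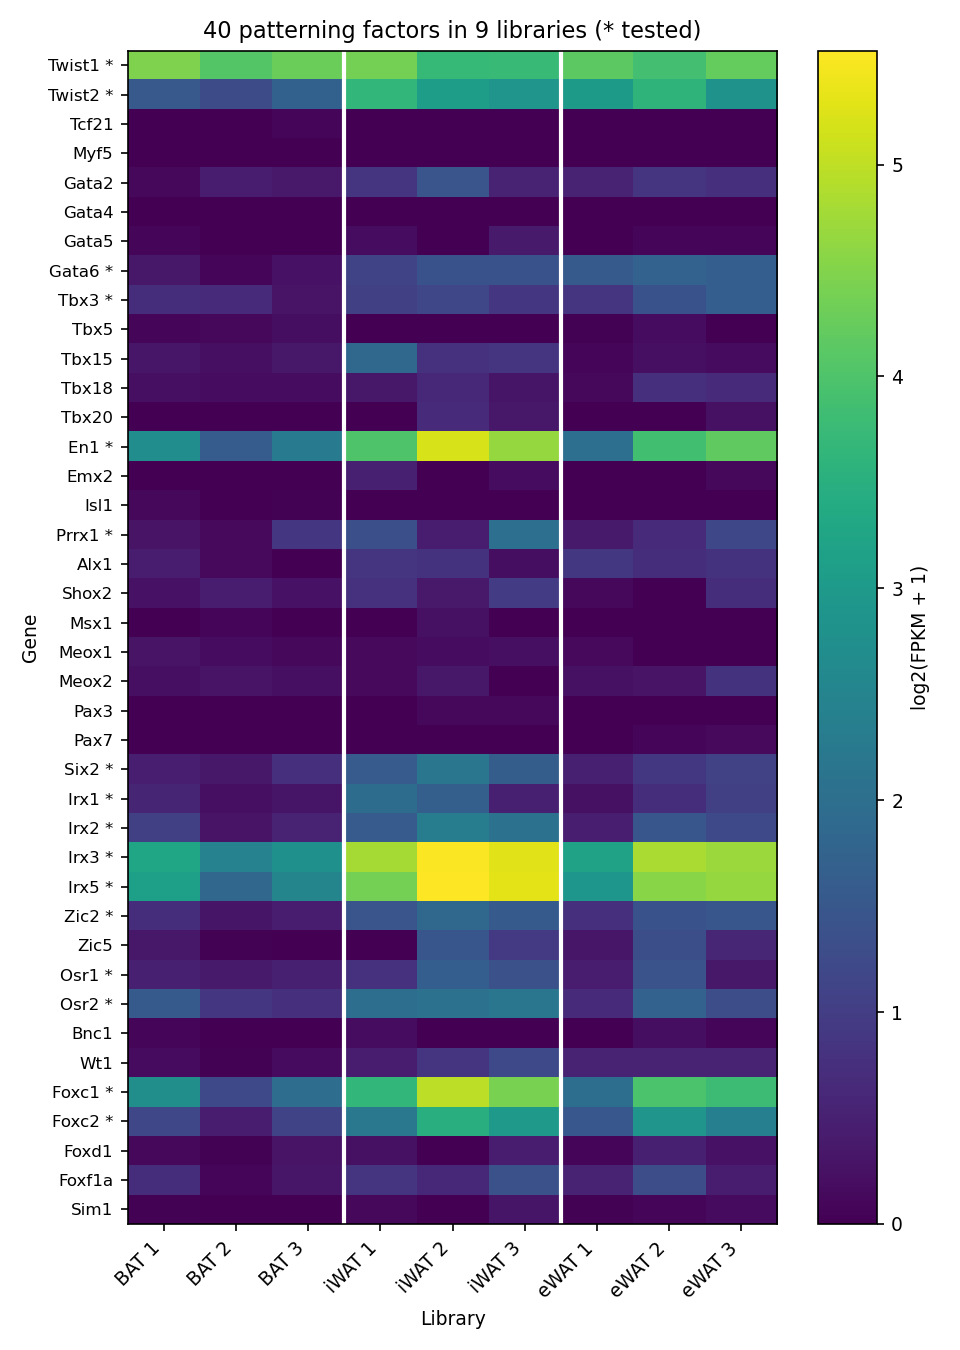
Heat map of log2(FPKM + 1) for the 40 factors (rows, grouped by family, an asterisk marks the 16 tested genes) in 9 libraries (columns, white lines between depots). Twist1 is bright in every library, En1, Irx3, Irx5 and Foxc1 are brightest in iWAT 2, and most other rows stay dark.

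The promoters of 3 of these highly expressed factors are printed because they carry the contrasts described next: Twist1 was level between depots, its paralogue Twist2 was lower in BAT, and Foxc1 stands for the factors whose extremes fell in the same libraries as those of Krt5. Each is the 250 bases before the start of the RefSeq gene model, read from the mm9 genome on the plus strand. Twist1 lies at chr12:34642286-34642535, Twist2 at chr1:93697788-93698037 and Foxc1 at chr13:31898265-31898514. Capitals mark the GC box, GGGCGG or its reverse complement CCGCCC.
Twist1: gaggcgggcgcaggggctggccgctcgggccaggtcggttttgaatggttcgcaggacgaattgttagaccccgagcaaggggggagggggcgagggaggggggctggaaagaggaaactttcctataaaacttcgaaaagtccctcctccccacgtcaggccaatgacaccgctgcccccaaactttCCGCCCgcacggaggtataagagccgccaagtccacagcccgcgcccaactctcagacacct
Twist2: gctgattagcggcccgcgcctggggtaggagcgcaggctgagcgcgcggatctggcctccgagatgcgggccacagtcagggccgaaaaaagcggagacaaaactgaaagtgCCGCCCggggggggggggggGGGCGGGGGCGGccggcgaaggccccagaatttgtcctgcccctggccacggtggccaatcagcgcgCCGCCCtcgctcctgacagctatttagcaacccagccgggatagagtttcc
Foxc1: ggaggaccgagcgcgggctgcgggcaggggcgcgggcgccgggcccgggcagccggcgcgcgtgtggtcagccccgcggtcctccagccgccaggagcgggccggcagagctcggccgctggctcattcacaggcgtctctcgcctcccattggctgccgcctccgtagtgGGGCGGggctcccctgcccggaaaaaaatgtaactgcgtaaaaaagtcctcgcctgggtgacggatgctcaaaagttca
The printed stretches hold 1 GC box for Twist1, 4 for Twist2 and 1 for Foxc1, and their GC content was 62.4%, 68.8% and 70.8%. Over RefSeq promoter windows that also take in 50 bases after the start, 25 of the 40 factors had an entry. A GC box on either strand was present in 17 of these 25 (68%) and in 35.9% of all 27025 windows of that length. The median GC content of the 25 was 63.7%, against 52.7% for all, and the median ratio of observed to expected CpG was 0.75 against 0.39. TATAAA on either strand was found in 20% of the factors' windows and 14.2% of all, and CCAAT on either strand in 44% and 38%. A match of letters is a description of the sequence and does not show that a protein binds there.

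Between BAT and iWAT, 13 of the 16 tested factors were lower in BAT and 0 were higher (limma, Benjamini-Hochberg adjusted p under 0.05). Of all 10374 genes tested, 22.9% were called lower in BAT, 34.5% higher and 57.5% either way. The median log2 difference was -1.21 over the 16 factors and 0.23 over all tested genes. At an unadjusted p under 0.05 the counts were the same, 13 lower and 0 higher. The groups did not overlap for 13 of the 16, as for 65.7% of all tested genes. BAT against eWAT gave 7 lower and 0 higher (8 and 0 at an unadjusted p under 0.05), where 13.5% of all tested genes were called lower, 20.2% higher and 33.7% either way. The median difference there was -0.73, against -0.02 over all, and the groups did not overlap for 5 of the 16 (Twist2, Gata6, Tbx3, Zic2 and Foxc2), as for 54.6% of all tested genes. The 2 comparisons share the BAT libraries. Six2, Tbx3, Irx1, Zic2, Gata6, Osr1 and Prrx1 were under 1 FPKM in every BAT library. They passed the filter only through white libraries, so the direction of their differences was in part set by the filter. Leaving out eWAT 1 raised the count against eWAT to 9, and leaving out BAT 1 lowered it to 4. Genes called either way in all were then 4161 and 2497, beside 3492 with all libraries. The count of factors was 2 without BAT 2, BAT 3, eWAT 2 or eWAT 3, where 2357 to 2530 genes were called in all. Between iWAT and eWAT, 0 of 16 were called in either direction, with 5 higher in iWAT at an unadjusted p under 0.05. Only 0.231% of all tested genes were called higher in iWAT there, 1.5% lower and 1.74% either way. The white depots did not overlap for 4 of the 16, Six2, Gata6, Irx2 and Osr2, as for 22.7% of all tested genes. Without iWAT 1, Six2 and Irx2 were called higher in iWAT, where 3321 genes in all were called either way (180 with it).

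The Twist factors, helix-loop-helix proteins of mesenchyme that hold back differentiation, behaved differently from each other. Twist1, which in brown fat is known to restrain the PGC-1 alpha programme, was measured at 21.1, 15.7 and 18.7 FPKM in BAT 1 to 3, at 19.8, 12.0 and 12.5 in iWAT 1 to 3, and at 16.6, 13.8 and 17.8 in eWAT 1 to 3. The depots overlapped, and Twist1 was the one tested factor with its highest mean in BAT. Its log2 difference was 0.33 ± 0.25 (SE; limma adjusted p = 0.263) between BAT and iWAT and 0.19 ± 0.25 (adjusted p = 0.575) between BAT and eWAT. Without iWAT 1 the first became a call for higher Twist1 in BAT (0.55, adjusted p = 0.0372).

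Twist2, also called Dermo1 for its expression in the dermis, was measured at 1.91, 1.39 and 2.27 FPKM in BAT, at 11.6, 7.45 and 6.41 in iWAT, with 7.10, 11.2 and 6.11 in eWAT. Every BAT library lay below every white library, and the white depots overlapped. The log2 difference was -1.71 ± 0.29 against iWAT (limma adjusted p = 0.0009) and -1.65 ± 0.29 against eWAT (adjusted p = 0.0015). Between the white depots it was 0.06 ± 0.29 (adjusted p = 0.899). In BAT, Twist1 thus averaged 18.5 ± 2.71 FPKM (SD, n = 3) beside 1.86 ± 0.444 for Twist2, and in eWAT 16.1 ± 2.05 beside 8.12 ± 2.67.

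Gata6, a zinc-finger factor of endoderm and lateral mesoderm, had the smallest adjusted p of the 16 factors between BAT and eWAT. It was measured at 0.290, 0.0663 and 0.212 FPKM in BAT, at 1.20, 1.63 and 1.63 in iWAT, with 1.98, 2.36 and 2.14 in eWAT. The 3 depots did not overlap. The difference was -1.41 ± 0.18 on the log2 scale against eWAT (limma adjusted p = 0.000241) and -1.06 ± 0.18 against iWAT (adjusted p = 0.00101). That between iWAT and eWAT, -0.35 ± 0.18, missed the threshold (adjusted p = 0.235). These are low levels: the BAT values correspond to an estimated 9.7, 4.2 and 9.4 reads, and the eWAT values to 96.1, 31.5 and 29.6. Its relative Gata2, a blood and preadipocyte factor, ran from 0.0815 to 1.75 FPKM, and Gata5 from 0 to 0.324.

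Among the T-box factors, Tbx3, which acts in limb and mammary development, was at 0.658, 0.587 and 0.230 FPKM in BAT, 1.08, 1.25 and 0.827 in iWAT, and 0.784, 1.64 and 2.15 in eWAT. Each BAT value lay below all 6 white values. The difference was called against eWAT (-0.73 ± 0.24, limma adjusted p = 0.0397) and not against iWAT (-0.47 ± 0.24, adjusted p = 0.12). The call was lost without any single BAT library, eWAT 2 or eWAT 3 (adjusted p = 0.0648 to 0.148). Tbx15, a subcutaneous fat and skeletal factor, was at 2.65, 0.720 and 0.771 FPKM in iWAT, at 0.266, 0.174 and 0.283 in BAT, and at 0.0777, 0.179 and 0.116 in eWAT. All 3 iWAT libraries were above the other 6, with iWAT 1 far above the rest, but Tbx15 reached 1 FPKM in that library alone and was not tested. In the fit without a filter its difference between BAT and iWAT was -0.85 (adjusted p = 0.0404). Tbx18 stayed between 0.0927 and 0.668 FPKM, and Tbx20 between 0 and 0.589. The forelimb factor Tbx5, a neighbour of Tbx3 on chromosome 5, did not exceed 0.152.

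The plot of FPKM by depot sets Twist1, Twist2, Gata6 and Tbx15 above En1, Irx3, Irx5 and Foxc1.

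**Figure D2:**
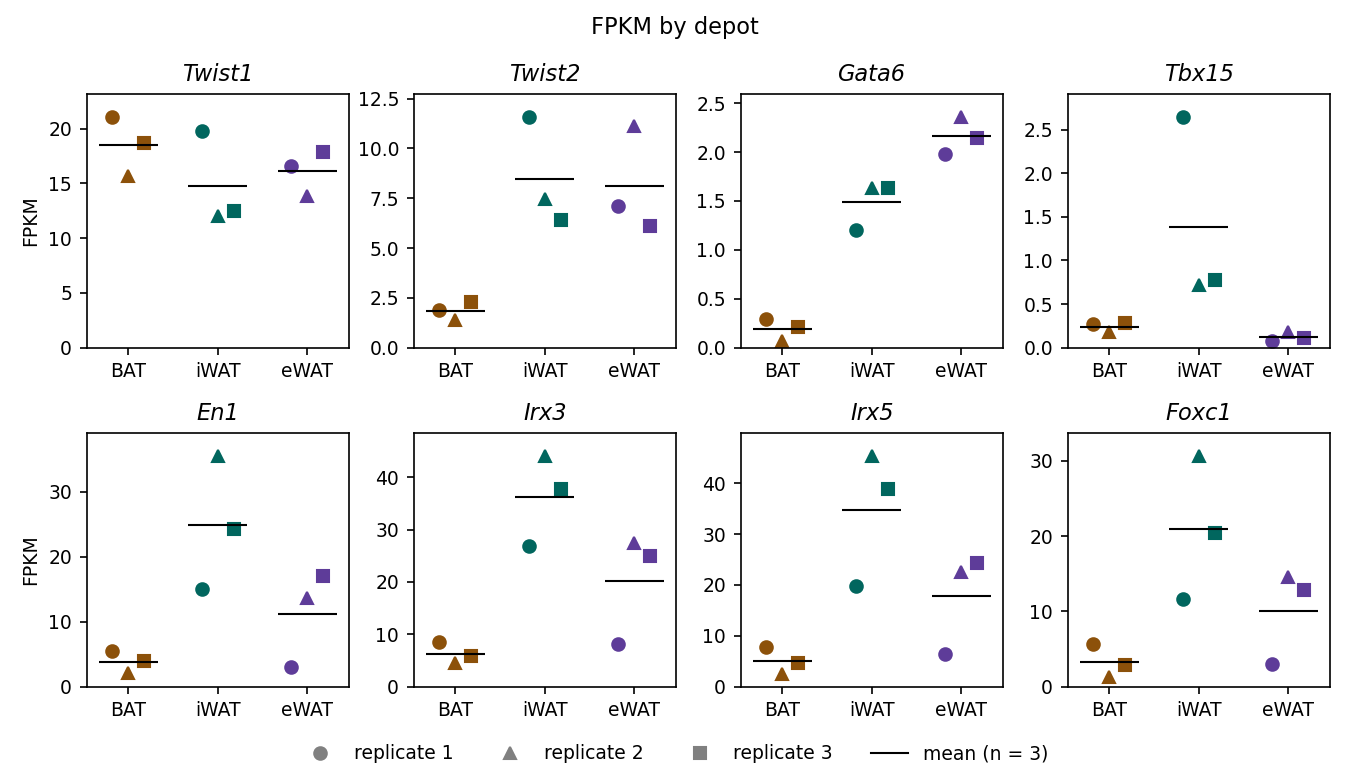
FPKM (vertical axis, from 0, one scale per gene) of 8 factors in BAT, iWAT and eWAT. Each point is a library, its shape gives the replicate number and the line is the mean of 3. Twist1 overlaps between depots, Twist2 and Gata6 are lowest in all 3 BAT libraries, and in the lower row iWAT 2 is highest and eWAT 1 is the lowest of its depot.

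The homeobox factor En1, which marks ventral limb ectoderm and the central dermomyotome, was at 5.56, 2.04 and 3.91 FPKM in BAT, at 15.02, 35.6 and 24.3 in iWAT, with 3.07, 13.6 and 17.1 in eWAT. All iWAT libraries lay above all BAT libraries, while eWAT 1 fell among the BAT values. The difference from iWAT was -2.42 ± 0.54 (limma adjusted p = 0.0042) and that from eWAT -1.15 ± 0.54 (adjusted p = 0.123). Six2, a factor of nephron progenitors, was at 0.385, 0.288 and 0.670 FPKM in BAT, 2.03, 3.5 and 2.10 in iWAT, and 0.405, 0.862 and 1.14 in eWAT. It was lower in BAT than in iWAT (-1.28 ± 0.24, adjusted p = 0.00165). It also had the smallest adjusted p of the 16 factors between iWAT and eWAT, where it missed the threshold (0.97 ± 0.24, adjusted p = 0.0673) although the 2 white depots did not overlap.

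The Iroquois factors lie in clusters, with Irx1 and Irx2 665.1 kb apart on chromosome 13 and Irx3 and Irx5 556.1 kb apart on chromosome 8. Irx3, which in adipocytes has been studied for its link to thermogenesis and obesity risk, was at 8.56, 4.46 and 5.87 FPKM in BAT, 26.9, 44.1 and 37.8 in iWAT, and 8.17, 27.4 and 24.9 in eWAT. Irx5 followed with 7.71, 2.54 and 4.72 in BAT, 19.7, 45.4 and 38.9 in iWAT, and 6.46, 22.5 and 24.3 in eWAT. For both genes, BAT and iWAT did not overlap and eWAT 1 stood with BAT. The differences from iWAT were -2.36 ± 0.42 for Irx3 (limma adjusted p = 0.00122) and -2.59 ± 0.51 for Irx5 (adjusted p = 0.00221). Against eWAT they were -1.41 ± 0.42 (adjusted p = 0.0258) and -1.55 ± 0.51 (adjusted p = 0.0392). Both eWAT calls were lost without any of BAT 2, BAT 3, eWAT 2 or eWAT 3, and that of Irx5 also without iWAT 3.

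The other cluster was expressed at a lower level. Irx2 was at 1.07, 0.233 and 0.454 FPKM in BAT, 1.99, 4.11 and 3.24 in iWAT, and 0.376, 1.80 and 1.35 in eWAT, and was lower in BAT than in iWAT (-1.38 ± 0.32, limma adjusted p = 0.00507). Irx1 was at 0.486, 0.169 and 0.251 in BAT, 2.89, 2.21 and 0.397 in iWAT, and 0.188, 0.659 and 1.06 in eWAT. Its call against iWAT (-1.0 ± 0.36, adjusted p = 0.0349) was lost without any single BAT library, iWAT 1 or iWAT 2. Neither gene was called against eWAT.

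The forkhead factors Foxc1 and Foxc2 act together in somites, vessels and eye. Foxc1 was at 5.66, 1.35 and 2.92 FPKM in BAT, 11.6, 30.7 and 20.4 in iWAT, and 2.98, 14.6 and 12.8 in eWAT. Foxc2, which can drive brown-like features when expressed in fat, was at 1.27, 0.359 and 1.21 in BAT, 3.62, 10.1 and 7.02 in iWAT, and 1.82, 6.43 and 4.27 in eWAT. Foxc2 was thus lower in every BAT library than in every white one, and Foxc1 overlapped between BAT and eWAT. The differences from iWAT were -2.38 ± 0.56 for Foxc1 (limma adjusted p = 0.00541) and -1.97 ± 0.41 for Foxc2 (adjusted p = 0.00301). Against eWAT only Foxc2 was called (-1.34 ± 0.41, adjusted p = 0.0303, Foxc1 adjusted p = 0.106), a call lost without any single BAT library, eWAT 2 or eWAT 3. Foxf1a, 29.2 kb from Foxc2 and a factor of splanchnic mesoderm, ran from 0.0690 to 1.58 FPKM, and the kidney stroma factor Foxd1 from 0 to 0.402.

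The zinc-finger factor Zic2 was at 0.648, 0.240 and 0.337 FPKM in BAT, 1.74, 2.61 and 1.95 in iWAT, and 0.691, 1.63 and 1.78 in eWAT, with BAT below all white libraries. It was called lower in BAT than in iWAT (-1.14 ± 0.24, limma adjusted p = 0.00319) and than in eWAT (-0.73 ± 0.24, adjusted p = 0.0403). The second call was lost without any single BAT library, iWAT 3, eWAT 2 or eWAT 3 (adjusted p = 0.0521 to 0.143). Zic5, 9.7 kb away on chromosome 14, ran from 0 to 1.80 FPKM. The odd-skipped factor Osr2 was at 1.95, 0.842 and 0.665 FPKM in BAT, 3.004, 3.25 and 3.48 in iWAT, and 0.568, 2.33 and 1.47 in eWAT (BAT minus iWAT -1.02 ± 0.31, adjusted p = 0.0162). Osr1, which marks connective tissue progenitors, was at 0.403, 0.317 and 0.409 in BAT, 0.727, 2.15 and 1.58 in iWAT, and 0.354, 1.68 and 0.279 in eWAT. Its difference from iWAT was -0.81 ± 0.31 (adjusted p = 0.0447). The Osr2 call was lost without BAT 2 or BAT 3, and the Osr1 call without any single BAT library, iWAT 2 or iWAT 3. Prrx1, a limb mesenchyme and fat progenitor factor, was at 0.222, 0.110 and 0.837 in BAT, 1.55, 0.353 and 3.09 in iWAT, and 0.320, 0.579 and 1.28 in eWAT, and it was not called (BAT minus iWAT -0.83 ± 0.38, adjusted p = 0.0844).

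Among the factors not tested, the mesothelial gene Wt1 was at 0.127, 0.0160 and 0.115 FPKM in BAT, 0.350, 0.811 and 1.33 in iWAT, and 0.458, 0.438 and 0.438 in eWAT. Each BAT value lay below all white values, and eWAT was not above iWAT. These values rest on few reads, an estimated 4.1, 1.0 and 4.9 in BAT and 4.7, 8.1 and 11.2 in iWAT. In eWAT they were 21.5, 5.6 and 5.8. In the fit without a filter, the Wt1 difference between BAT and iWAT was -0.72 (limma adjusted p = 0.0183). That between BAT and eWAT was -0.41 (adjusted p = 0.175). Alx1 ran from 0 to 0.874 FPKM and Shox2 from 0 to 0.944. The somite factors Meox1 and Meox2 stayed between 0 and 0.228 and between 0 and 0.757, Pax3 reached 0.0917 and Pax7 0.110. Emx2 reached 0.403, Isl1 0.0810, Msx1 0.184, Sim1 0.239, Tcf21 0.0593 and Bnc1 0.147. At the depth of iWAT 3, 1 read of Pax3 is worth 0.0937 FPKM. The highest estimated reads were 1.1 for Pax3 and 2.9 for Pax7, but 35.2 for Alx1, 20.3 for Meox2 and 18.9 for Shox2. The counting is not stated to use strand, so reads of Emx2 and of its antisense partner Emx2os (at most 0.449 FPKM) cannot be told apart.

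Across the 9 libraries, part of the list had its extremes where several epithelial markers had theirs. In En1, Six2, Irx2, Irx3, Irx5, Zic2, Foxc1 and Foxc2, BAT 2 was the lowest library of all, iWAT 2 was the highest of all and eWAT 1 was the lowest of its depot. Krt5 had the same extremes, with 19.9, 10.3 and 15.8 FPKM in BAT, 68.3, 188 and 127 in iWAT, and 29.3, 87.3 and 79.7 in eWAT, and so did Krt14, Krt15, Krt8 and Dsp. Trp63 and Krt10 did not. Of the 7 tested epithelial markers, 6 were called lower in BAT than in iWAT, while Krt10, a keratin of differentiated epidermis, was called higher (0.86, limma adjusted p = 0.0248) with 2.15, 2.77 and 2.44 FPKM in BAT and 2.06, 0.451 and 0.558 in iWAT. The median log2 level of the 7 tested epithelial markers was 3.06, 1.91 and 2.56 in BAT 1 to 3, 4.39, 6.11 and 5.46 in iWAT, and 2.98, 4.93 and 4.78 in eWAT. Irx3 divided by Krt5 lay between 0.234 and 0.431 in all libraries and Irx5 divided by Krt5 between 0.221 and 0.387. The same ratio for Twist1 ran from 0.0637 to 1.52 and for Gata6 from 0.00642 to 0.0676. These ratios describe libraries that share their denominators and scaling.

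Estimated reads, which undo the scaling to depth, ranged less than FPKM for the same 8 genes, by 1.77 times (Irx3) to 4.61 times (Foxc2). En1 had 230, 161 and 216 estimated reads in BAT, 260, 461 and 264 in iWAT, and 185, 226 and 294 in eWAT, a range of 2.86 times where its FPKM ranged 17.5 times. Irx3 had 186 to 329 estimated reads and ranged 9.9 times in FPKM. Foxc1 had 108 to 404 (3.74 times) against 22.8 times in FPKM. Krt5 ranged 2.99 times in estimated reads and 18.2 times in FPKM. Twist1 did the reverse, with 51.5 to 470 estimated reads (9.14 times) and an FPKM range of 1.76 times. With limits set after the data were seen, an FPKM range of at least 8 times with a range in estimated reads of at most 5 times held for 8 of the 16 tested factors (50%) and for 687 of 9991 tested genes with a coding transcript (6.88%). The shallow libraries are those of iWAT, eWAT 2 and eWAT 3, so depth, epithelial marker level and depot cannot be told apart for most of these values.

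**Figure D3:**
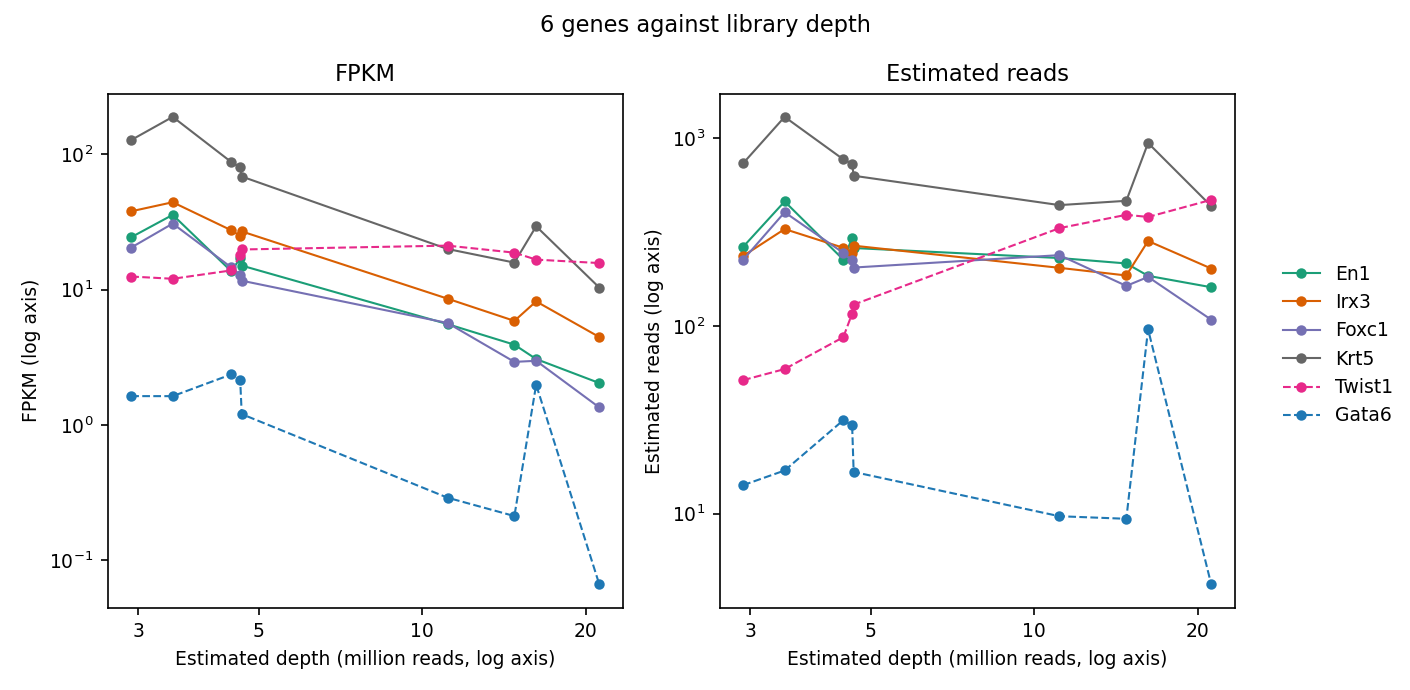
FPKM (left) and estimated reads (right) of 6 genes against the estimated depth of the 9 libraries, all axes logarithmic and lines joining libraries in order of depth. En1, Irx3, Foxc1 and Krt5 (solid) are lower in FPKM in the deep libraries and range 1.77 to 3.74 times in estimated reads, while Twist1 (dashed) ranges 1.76 times in FPKM.

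BAT 1 and eWAT 1 are both deep (11.1 and 16.2 M reads), and their epithelial levels are close (3.06 and 2.98). En1 was at 5.56 FPKM in BAT 1 and 3.07 in eWAT 1, Irx3 at 8.56 and 8.17, Irx5 at 7.71 and 6.46, and Foxc1 at 5.66 and 2.98. Twist2 was at 1.91 and 7.10 and Gata6 at 0.290 and 1.98. This is 1 library of each depot, picked on depth and epithelial level, with no replicate, so it cannot decide a cause. A fit that added the epithelial level as a covariate, chosen after the data were seen, called 0 of the 16 lower in BAT than in iWAT (2 at an unadjusted p under 0.05) and 2 lower than in eWAT. The 2 were Twist2 (-1.68 ± 0.39, limma adjusted p = 0.0128) and Gata6 (-1.20 ± 0.20, adjusted p = 0.00302). Over all tested genes, that fit called 1728 either way between BAT and iWAT (5961 without the covariate). Between BAT and eWAT it called 3002 (3492 without). Against iWAT, Twist2 was at -1.75 ± 0.52 (adjusted p = 0.0527) and Gata6 at -0.71 ± 0.27 (adjusted p = 0.105) in that fit, while Prrx1 was at -0.77 ± 0.78, Irx1 at -0.67 ± 0.71, Six2 at -0.56 ± 0.34, Irx3 at -0.47 ± 0.32 and En1 at 0.17 ± 0.35. The covariate itself differs between depots. It ran from 1.91 to 3.06 in BAT and from 4.39 to 6.11 in iWAT, without overlap. The fit therefore cannot tell depot and epithelial level apart between BAT and iWAT. Whether epithelial RNA accounts for the lower values was not tested.

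**Figure D4:**
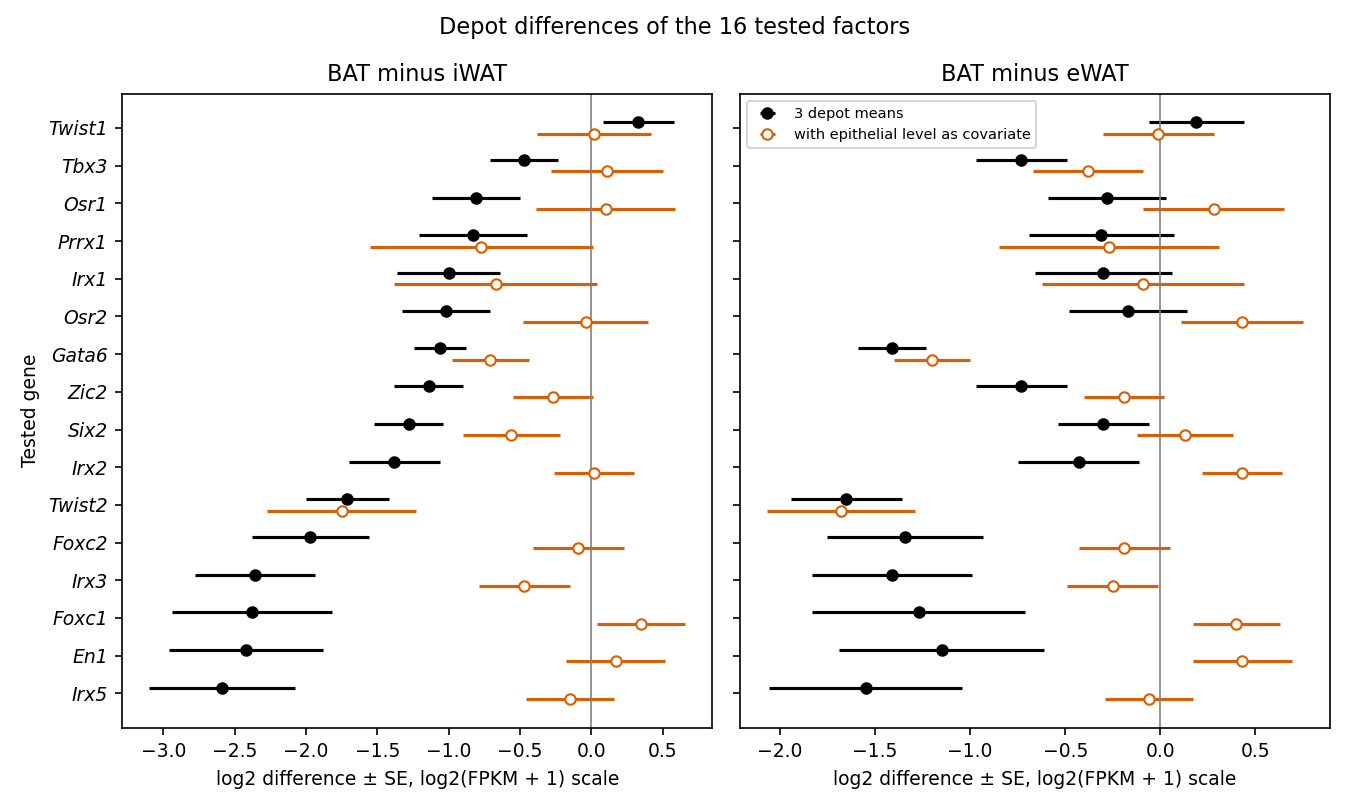
Log2 difference ± SE, on the log2(FPKM + 1) scale, of the 16 tested factors for BAT minus iWAT (left) and BAT minus eWAT (right), with depot means alone (filled) and with the epithelial level as a covariate (open). With the covariate, Twist2 is farthest below 0 in both panels (-1.75 and -1.68) and Gata6 is at -0.71 and -1.20, with Prrx1 at -0.77, Irx1 at -0.67 and Six2 at -0.56 in the left panel.

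Of 98 relatives and partners of the factors, listed with earlier results known, 34 were tested. Between BAT and iWAT, 17 were lower in BAT and 2 higher, with a median log2 difference of -0.94. Of all tested genes, 22.9% were called lower and 34.5% higher there, with a median of 0.23. Between BAT and eWAT, 9 were lower and 1 higher, beside 13.5% and 20.2% of all tested genes. Between iWAT and eWAT 0 were called, beside 1.74% of all tested genes (limma, with 2 higher and 1 lower in iWAT at an unadjusted p under 0.05). Large called differences between BAT and iWAT were found in the hindlimb factor Pitx1 (2.68 ± 1.77 FPKM in BAT, 26.2 ± 16.8 in iWAT, SD, n = 3 each, log2 -2.79), in Irx6, the third gene of the Irx3 cluster (-2.72), and in the neural crest factor Foxd3 (-2.21). With the covariate they were at 0.11, -0.24 and -0.49. Id3, an inhibitor of helix-loop-helix factors such as the Twist proteins, was at 20.6 ± 11.9 FPKM in BAT and 175 ± 83.4 in eWAT (-3.01 ± 0.54, limma adjusted p = 0.00175, and -3.16 with the covariate, adjusted p = 0.0193).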

How the data were processed

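Ribosome-bound RNA of 9 libraries (BAT, iWAT and eWAT, 3 each) was depleted of ribosomal RNA and sequenced as single-end libraries, per the labels' protocols. Reads were processed with TopHat and Cufflinks against mm9, per the submitters' processing notes, which give no versions. The table deposited by the authors holds FPKM values, read as such because Cufflinks is named and the columns have unequal sums, since its header gives no unit. The annotation and strand setting are not given in the sources used here. Groups follow the titles. The labels do not say that replicates are separate animals, so p-values measure only the spread between these samples, which may be technical. No 2 library columns were identical.

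The table has 22996 lines for 22527 symbols, and the 259 repeated symbols were each represented by their highest line on average. Values were analysed as log2(FPKM + 1) with limma 3.58.1 in R 4.3.3 (empirical Bayes with an intensity trend, 2-sided, 3 depot means, 6 residual degrees of freedom). The test took in the 10374 genes that reached 1 FPKM in 3 or more libraries, p-values were adjusted over all of them by the Benjamini-Hochberg method, and calls were made under 0.05. The log2(value + 1) scale understates changes of low genes. The planned count test did not apply. Depth was estimated from 5211 single-transcript genes with a length offset of 200 bases. Between 43.9% and 63.5% of the low values used came out whole (tolerance 0.15 reads), so whole reads were not recovered and estimated reads are approximate. Lengths and positions came from GENCODE vM1 on mm9, and promoter windows from RefSeq (GRCm38.p6), of which the printed ones were matched exactly to mm9. The script was tested on simulated data.

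Same-numbered libraries of iWAT and eWAT deviated from their depot means together (correlations 0.634, 0.534 and 0.165), and those of BAT did not pair with iWAT (-0.324, -0.225 and 0.121) or eWAT (-0.388, -0.202 and 0.103). Libraries of unlike number could also deviate together, such as iWAT 2 with eWAT 3 (0.228) and BAT 2 with eWAT 1 (0.374). The labels give no pairing of the white depots, and these values do not settle whether there was one.

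The members and the lists of related genes and markers were chosen with earlier results of these data known. Every member is named, those past the filter with each library's value. Related genes are named where called with a log2 difference of at least 2, at most 4 per comparison, and some related genes are not reported here by name. The settings varied were the pseudocount (0.1), the filter (none, or a mean of at least 2 FPKM), median-ratio scaling, quantile normalization, separate fits of each pair, array weights, the replicate block, a minimum fold change of 2, each library left out in turn, and, added after the data were seen, the epithelial covariate (the median log2 level of 7 markers). Python 3.11.15 was used for tables and figures.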

Additional observations from a re-analysis of the deposited data

How the results depend on the processing

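For 24 differences of named factors, 444 alternative values were computed: 368 kept their direction and side of the threshold, 68 lost a call, 3 gained one and 5 reversed. The calls for lower Twist2 and Gata6 in BAT than in eWAT held under each alternative run, Gata6 not being tested at a mean of at least 2 FPKM. With the epithelial covariate, chosen after the data were seen, the BAT minus iWAT differences of En1 (0.17), Irx2 (0.02), Osr1 (0.10) and Foxc1 (0.35) and the BAT minus eWAT difference of Twist1 (-0.01) reversed, none of them called. Genes called with the covariate were 1728 for BAT against iWAT (5961 without) and 3002 for BAT against eWAT (3492 without). For iWAT against eWAT they were 42 (180 without). Factors called lower in BAT fell to 0 against iWAT and 2 against eWAT. Requiring a mean of at least 2 FPKM left 6 factors lower in BAT than in iWAT and 4 than in eWAT, since fewer factors were tested. Without a filter, 2 were lower than in eWAT, where more genes were tested. Leaving out 1 library gave 2 to 9 factors lower in BAT than in eWAT, with 2357 to 4443 genes called there in all. It gave 0 to 1 factors higher in BAT than in iWAT and 0 to 2 higher in iWAT than in eWAT. Genes called between iWAT and eWAT were then 50 to 3321, the highest without iWAT 1. Genes called between iWAT and eWAT were 90 with a pseudocount of 0.1, 93 without a filter, 113 with median-ratio scaling, 33 with pairs fitted alone and 1970 with array weights. Array weights called 6625 genes between BAT and eWAT (3492 without). Quantile normalization called 1 factor, Six2, higher in iWAT than in eWAT. With the replicate block, factors lower in BAT were 5 against eWAT (Tbx3 and Zic2 lost their calls) and 14 against iWAT (Prrx1 gained one), and 0 were called between the white depots. It changed no other factor's call against eWAT. Where no value above shows a cause, the cause was not tested. The 24 untested factors missed the filter on FPKM, and their estimated reads are at most 41.5 in a library.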
